A study of Rattus norvegicus with 16 samples.

Results

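The genes described here are 10 genes of myelin lipid metabolism and of oligodendrocyte regulation: Ugt8, Fa2h, Aspa, Gal3st1, Myrf, Sox10, Klk6, Tf, Gjb1 and Gjc3. They were chosen by name from what their products are known to do, and with earlier results of these data known. A gene was measured where a probe set of the array carried its symbol and no other. Of these 10 genes, 9 were measured among the 10423 genes tested. Gal3st1 was not named in the array annotation used here and was not analysed. Expression was measured in the whole prefrontal cortex (PFC) of adult male Sprague-Dawley rats on Affymetrix Rat Gene 1.0 ST arrays, with 8 arrays of rats that went through a single session of inescapable footshock (FS) and 8 of controls. FS rats received 40 min of intermittent shocks of 0.8 mA, in all 20 min of shock with pauses of 2 to 8 s, and their tissue was taken as soon as the session ended. Controls stayed undisturbed in the home cage, so the shocks and the rest of the session cannot be told apart. The rats were all male, and the PFC was not divided into its subregions. Values are log2 intensities after RMA normalisation, so that a difference of 1 is a 2-fold ratio, and the number of arrays limits their precision. Each array is 1 labelled replicate, and the p-values measure the spread between these arrays.

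Oligodendrocytes wrap axons in myelin, a membrane unusually rich in the galactolipids galactosylceramide and sulfatide. Ugt8 adds galactose to ceramide, Fa2h hydroxylates the fatty acids of these lipids, and Gal3st1 turns galactosylceramide into sulfatide. Aspa splits N-acetylaspartate, a neuronal metabolite, into aspartate and acetate, which can be used for lipid synthesis. Sox10 and Myrf are transcription factors that oligodendrocytes need to express their myelin genes, and Sox10 acts upstream of Myrf. Klk6 is a secreted serine protease, Tf is the iron carrier transferrin, which oligodendrocytes make in the brain, and Gjb1 and Gjc3 are connexins of myelinating glia.

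Some arrays stood apart, and this touches the results below. Control replicates 2, 3 and 7 held the 3 lowest values of all 16 arrays for each of the 9 genes, and they were lowest for structural myelin genes as well. The mean deviation of the structural myelin list from the 16-array mean was -0.54 in control replicate 2, -0.52 in control replicate 3 and -0.63 in control replicate 7 on the log2 scale, while the other arrays lay between -0.11 and 0.32. Control replicate 6 had the highest control value of 7 of the 9 genes. It also had the highest mean of the striatal marker list of all arrays, at 1.75. In that mean FS replicates 2, 3, 4, 6 and 8 lay between 0.71 and 1.46. FS replicates 1, 5 and 7 lay between -1.05 and -0.03, and the other controls between -0.99 and 0.27. The difference of each of the 9 genes between the groups is therefore also given without control replicates 2, 3 and 7, a choice made after seeing the data. The comparison of SDs, the genes of like pattern, the differences of the gene lists and the fits with a covariate are given over all 16 arrays. Correlations between arrays over all probe sets lay between 0.981 and 0.997, and no arrays held the same values.

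Promoter sequences from RefSeq (assembly GRCr8) were available for 7 of the 9 measured genes, and those of Myrf and Sox10 were not used here. The 250 bases before the start site were searched on both strands for the core letters of SOX factors, ACAAAG and ACAATG, and of MYRF, CTGGCAC and CTGGTAC. These motifs do not overlap each other in the matches found. A SOX core was found in 2 of the 7 promoters, those of Klk6 and Aspa, against 25.3% of 33469 promoters of the same length, of which 16.3% held ACAAAG and 11.1% held ACAATG. A MYRF core was found in 0 of the 7, against 5.48% of all promoters, with 3.78% for CTGGCAC and 1.78% for CTGGTAC. A match is a description of letters only. Klk6 is shown because it held both SOX cores, Aspa because it held the other match, and Ugt8 because it had the largest difference between the groups. Capitals mark the SOX cores, which lie 202 to 197 and 131 to 126 bases before the start in Klk6 and, on the other strand, 240 to 235 bases before the start in Aspa. The Klk6 stretch of 145 bases (chr1:103415266-103415410, plus strand) stops where the annotated gene begins, and the Aspa stretch is limited to 30 bases (chr10:58439258-58439287, minus strand), since it lies inside the annotated gene. The Ugt8 window (chr2:217007168-217007417, minus strand) held none of the cores and is 81.2% G and C, against 55.6% for the window of Klk6 and 39.2% for that of Aspa.
Klk6: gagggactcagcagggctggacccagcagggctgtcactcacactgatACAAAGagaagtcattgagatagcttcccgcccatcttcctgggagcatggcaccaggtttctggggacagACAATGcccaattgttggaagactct
Aspa: gaataagccaCATTGTtatatttgggagga
Ugt8: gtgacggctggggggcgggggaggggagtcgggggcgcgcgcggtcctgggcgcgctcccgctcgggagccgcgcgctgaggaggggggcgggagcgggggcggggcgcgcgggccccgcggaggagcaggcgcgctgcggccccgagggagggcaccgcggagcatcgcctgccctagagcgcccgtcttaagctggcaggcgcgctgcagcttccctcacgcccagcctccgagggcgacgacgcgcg

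Each of the 9 measured genes had a higher mean in FS rats than in controls, and none passed the adjusted threshold. The differences lay between 0.21 and 0.58 on the log2 scale with a median of 0.39, while the median over all tested probe sets was -0.02. In limma, 0 of the 9 genes had an adjusted p-value under 0.05, as did 0 of all 11352 tested probe sets (0%). Without adjustment, 8 of the 9 genes had a p under 0.05 and a higher mean in FS rats, against 3.65% of all tested probe sets (414 of them) in that direction. Such a p was found for 5.67% of the tested probe sets in the opposite direction, where 0 of the 9 genes lay, and for 9.32% in either direction, and 42.5% were higher in FS rats by any amount. All 8 FS arrays lay above the control mean for 8 of the 9 genes, against 2.23% of the tested probe sets. The groups overlapped for all 9 genes, and 0.0617% of the tested probe sets had groups that did not overlap. Without control replicates 2, 3 and 7, all 9 genes were still higher in FS rats, the median difference was 0.19, and 5 of the 9 had an unadjusted p under 0.05. Over all probe sets, 403 then had such a p in either direction and 162 of them were higher in FS rats, against 1058 and 414 with all arrays. Leaving out control replicate 6 raised these counts to 1870 and 694, and leaving out FS replicate 3 or FS replicate 6 lowered the first to 648 or 665.

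**Figure D1:**
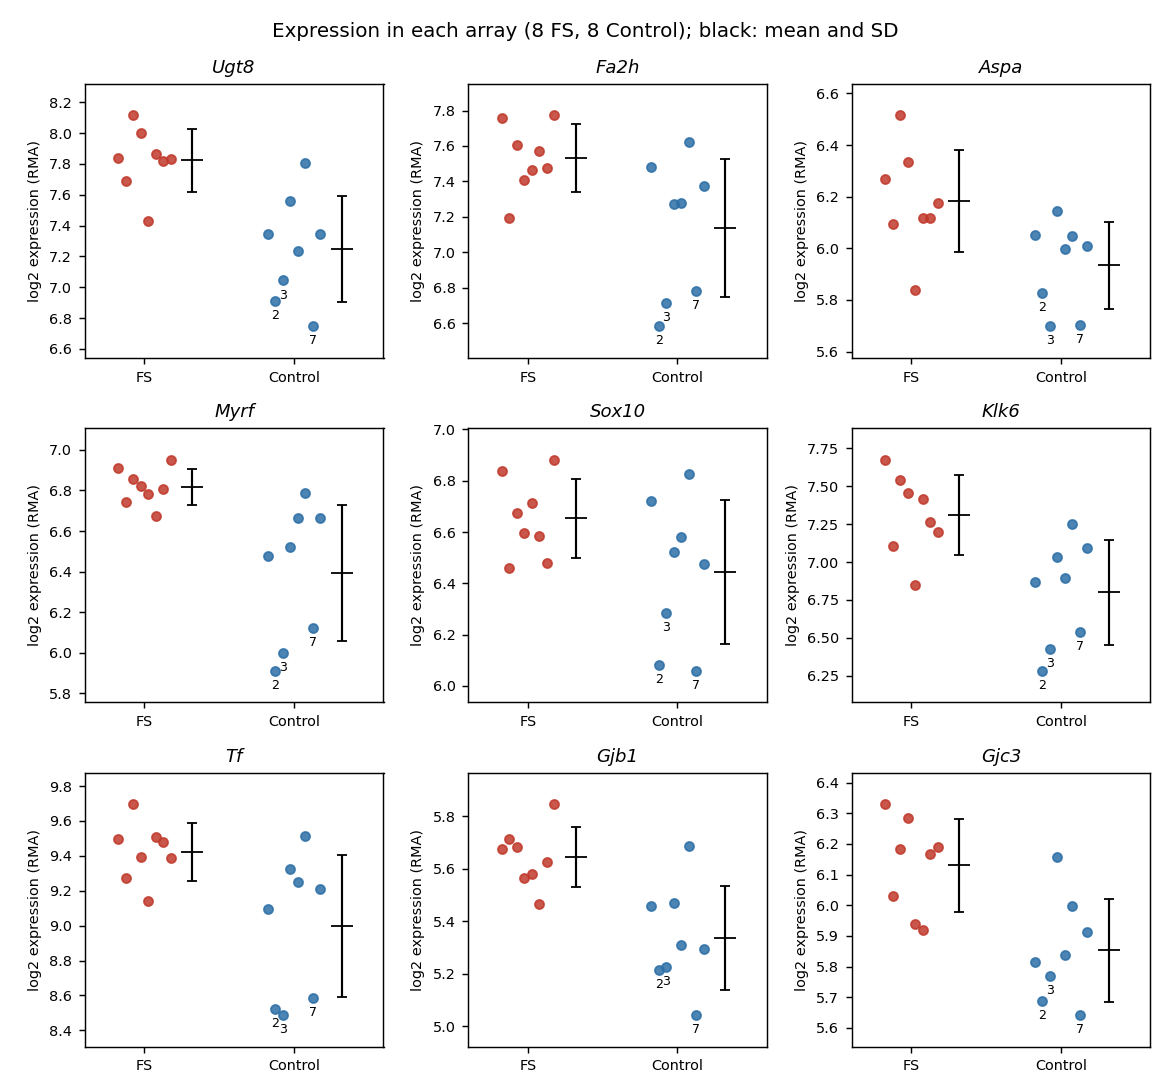
Expression of the 9 genes in each array on the log2 scale, with 8 FS arrays left and 8 control arrays right in each panel, and the mean and SD in black beside the points. Control replicates 2, 3 and 7, marked by their numbers, hold the 3 lowest values in every panel.

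Among the enzymes, Ugt8 (UDP galactosyltransferase 8, the enzyme that makes galactosylceramide) had the largest difference of the 9 genes. Its log2 expression had a lowest value of 7.43, a median of 7.84 and a highest value of 8.12 in FS rats, against 6.75, 7.29 and 7.80 in controls. Of the FS arrays, 6 lay above every control and 6 controls lay below every FS array, so that only FS replicates 2 and 5 and control replicates 4 and 6 shared a range. FS rats averaged 7.82 ± 0.20 and controls 7.25 ± 0.34 (SD, n = 8 each), a difference of 0.58 ± 0.13 (SE) with a 95% confidence interval of 0.30 to 0.85, or a 1.49-fold ratio (1.23 to 1.80). It ranked 4 of all tested probe sets by p-value, with an adjusted p-value of 0.495 in limma and a two-sided p of 0.00171 in the exact permutation test. Without control replicates 2, 3 and 7 the difference was 0.37, with an adjusted p-value of 0.974.

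Fa2h (fatty acid 2-hydroxylase), which hydroxylates the fatty acids of the same lipids, overlapped far more between the groups than Ugt8. It had 7.19, 7.53 and 7.77 as the lowest, median and highest log2 value in FS rats, against 6.58, 7.28 and 7.62 in controls. Only 2 FS arrays lay above every control, and the 3 controls below every FS array were replicates 2, 3 and 7. The difference was 0.39 ± 0.14 (SE, 95% confidence interval 0.10 to 0.69, n = 8 each; exact permutation p = 0.0241, adjusted p-value 0.509 in limma), and without those 3 controls it was 0.13.

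Aspa (aspartoacylase) was the least expressed of the 3 enzymes on these arrays, although levels of different probe sets are not strictly comparable. Its lowest, median and highest log2 values were 5.84, 6.15 and 6.52 in FS rats, against 5.70, 6.00 and 6.14 in controls. FS replicate 5 lay below the control mean, and 4 FS arrays lay above every control. The difference was 0.25 ± 0.09 (SE, 95% confidence interval 0.06 to 0.43, n = 8 each; exact permutation p = 0.0177, adjusted p-value 0.509 in limma), and without control replicates 2, 3 and 7 it was 0.13.

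The regulators Myrf and Sox10, which act in sequence in the oligodendrocyte lineage, both had a higher mean in FS rats. Whether their differences were unlike was not tested. Myrf (myelin regulatory factor) had 6.67, 6.81 and 6.95 as the lowest, median and highest log2 value in FS rats, against 5.91, 6.50 and 6.79 in controls. The FS arrays lay close together, with an SD of 0.09, while the SD of the controls was 3.74 times as large, at 0.33. Of the controls, 7 lay below every FS array, and control replicate 6 was the exception. The difference of 0.43 ± 0.11 (SE, 95% confidence interval 0.19 to 0.66, n = 8 each) had the smallest exact permutation p of the 9 genes, 0.000932, where the smallest possible p is 0.000155, and an adjusted p-value of 0.501 in limma. Without control replicates 2, 3 and 7 it was 0.20.

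Sox10 was the gene of the 9 without an unadjusted p under 0.05 with the group as the only term and all arrays weighted equally. It had 6.46, 6.64 and 6.88 as the lowest, median and highest log2 value in FS rats, against 6.06, 6.50 and 6.83 in controls. Only 2 FS arrays exceeded every control, and the 3 controls below every FS array were again replicates 2, 3 and 7. The difference was 0.21 ± 0.11 (SE, n = 8 each; exact permutation p = 0.0864, adjusted p-value 0.542 in limma), its 95% confidence interval reached from -0.01 to 0.43, and without those 3 controls it was 0.029. Its unadjusted p was under 0.05 when FS replicate 2 or 7 or control replicate 1 or 6 was left out, with differences of 0.24, 0.24, 0.25 and 0.26, and when arrays were weighted by their spread, with 0.29.

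The genes of the secreted proteins Klk6 and Tf were both higher in FS rats, and neither passed the adjusted threshold. Klk6, which codes for a protease abundant in oligodendrocytes, had 6.85, 7.34 and 7.68 as the lowest, median and highest log2 value in FS rats, against 6.28, 6.88 and 7.25 in controls. FS replicates 1, 3, 4, 6 and 7 lay above every control, while FS replicate 5 was close to the control mean. The difference was 0.51 ± 0.14 (SE, 95% confidence interval 0.22 to 0.81, n = 8 each; exact permutation p = 0.00591, adjusted p-value 0.501 in limma), and without control replicates 2, 3 and 7 it was 0.28.

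Tf had the strongest signal of the 9 genes, with a mean over the 16 arrays above those of 94.7% of the tested probe sets. It had 9.14, 9.44 and 9.70 as the lowest, median and highest log2 value in FS rats, against 8.49, 9.15 and 9.51 in controls. Only FS replicate 3 lay above every control. The difference was 0.42 ± 0.14 (SE, 95% confidence interval 0.13 to 0.72, n = 8 each; exact permutation p = 0.0148, adjusted p-value 0.503 in limma), and without control replicates 2, 3 and 7 it was 0.14. A further probe set that the annotation gives to Tf together with another gene was left out.

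The connexin genes Gjb1 and Gjc3, whose proteins form channels in myelinating glia, had differences between that of Aspa and that of Fa2h. Gjb1 had 5.47, 5.65 and 5.85 as the lowest, median and highest log2 value in FS rats, against 5.04, 5.30 and 5.69 in controls. Control replicate 6 reached into the upper part of the FS range, and 6 controls lay below every FS array. The difference was 0.31 ± 0.08 (SE, 95% confidence interval 0.14 to 0.47, n = 8 each; exact permutation p = 0.00311, adjusted p-value 0.495 in limma), and without control replicates 2, 3 and 7 it was 0.20.

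Gjc3 had 5.92, 6.18 and 6.33 as the lowest, median and highest log2 value in FS rats, against 5.64, 5.83 and 6.16 in controls. Of the FS arrays, 5 lay above every control, and 6 controls lay below every FS array. The difference was 0.28 ± 0.08 (SE, 95% confidence interval 0.11 to 0.44, n = 8 each; exact permutation p = 0.00528, adjusted p-value 0.501 in limma), and without control replicates 2, 3 and 7 it was 0.19. Without those controls the difference of Gjc3 was larger than those of Fa2h, Aspa, Sox10 and Tf.

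The spread of the 9 genes was wider in controls than in FS rats for 8 of them, the exception being Aspa, while 40.2% of all tested probe sets had the larger SD in controls. The median SD of the 9 genes was 0.17 in FS rats and 0.33 in controls, against 0.15 in FS rats and 0.14 in controls over all tested probe sets. The 3 low controls stand out in the map of deviations. Averaged over the 9 genes, the deviation from the 16-array mean was -0.53 in control replicate 2, -0.46 in control replicate 3 and -0.51 in control replicate 7. The 8 FS arrays lay between -0.010 (replicate 5) and 0.34 (replicate 3), and the other 5 controls lay between -0.09 and 0.19. In a dissected tissue, fewer oligodendrocytes and less RNA of these genes per cell cannot be told apart.

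**Figure D2:**
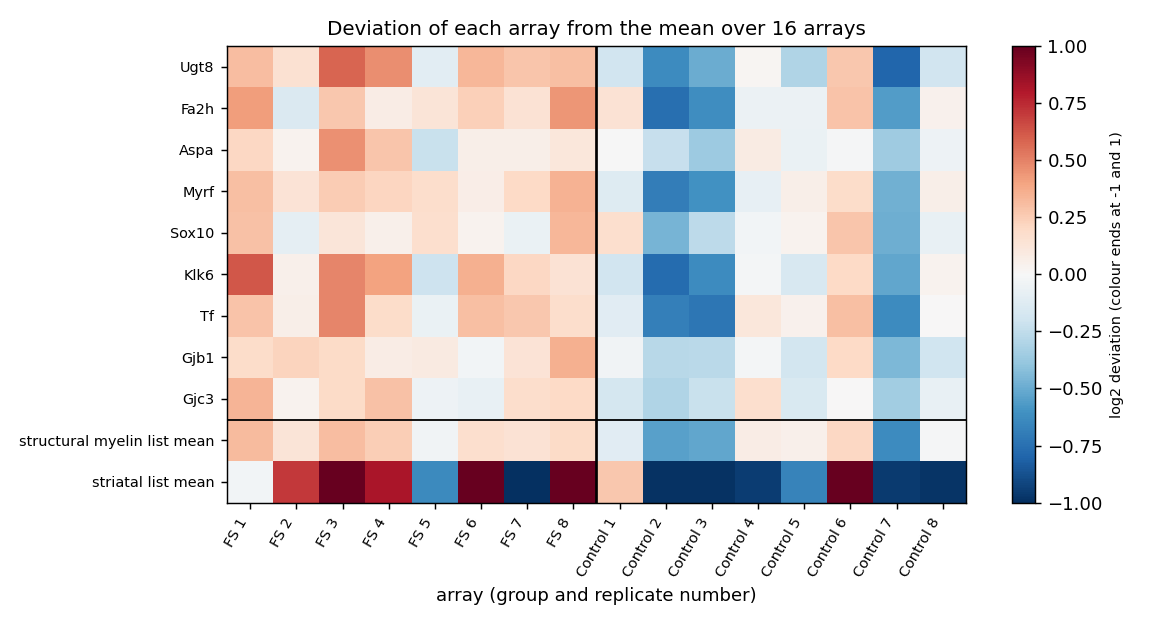
Log2 deviation of each array (columns, 8 FS arrays left of 8 control arrays) from the mean over 16 arrays, for the 9 genes and for the means of the structural myelin and striatal lists (bottom 2 strips). Control replicates 2, 3 and 7 are low for all 9 genes and for structural myelin, and the colour scale ends at -1 and 1.

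Because control replicates 2, 3 and 7 form a cluster of their own, the 9 genes were correlated over the other 13 arrays and within each group. The 13 arrays pool FS and control arrays, so r and its p over them also hold the difference between the groups. Over those 13 arrays the 36 pairs of genes had a median Pearson r of 0.58 (0.12 to 0.87) and a median Spearman rho of 0.59, and 14 pairs had an adjusted permutation p under 0.05 for r and 15 for rho. When the 2 arrays farthest from the median of each pair's first gene were also left out, the median r was 0.54 and 10 pairs had such a p. The 3 highest values were among Ugt8, Klk6 and Tf. Over the 13 arrays r was 0.87 between Ugt8 and Tf (rho = 0.83), 0.86 between Ugt8 and Klk6 (rho = 0.90), 0.85 between Klk6 and Tf (rho = 0.87) and 0.80 between Ugt8 and Aspa (rho = 0.83), with adjusted permutation p-values for r of 0.00264, 0.00264, 0.00264 and 0.00389 in that order. Aspa had r of 0.79 with Klk6 (rho = 0.78, adjusted permutation p-values 0.00414 and 0.0103) and of 0.75 with Tf (rho = 0.62, 0.0143 and 0.0592), and r between Aspa and Tf was 0.47 over 11 arrays. Sox10 was tied to Fa2h (r = 0.83, rho = 0.84, adjusted permutation p-values 0.00389 and 0.00427) but had r between 0.12 and 0.23 with Ugt8, Aspa, Klk6 and Tf, with adjusted permutation p-values of 0.50 to 0.706.

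The 8 FS arrays, which are among those 13, gave the following values within their group. The 6 pairs among Ugt8, Aspa, Klk6 and Tf had r between 0.83 and 0.95, while r was 0.85 between Fa2h and Sox10, 0.75 between Myrf and Sox10, and 0.76 and 0.77 for Myrf with Gjb1 and Gjc3. Of all 36 pairs, only Ugt8 with Aspa (r = 0.95) had an adjusted p under 0.05 within FS rats, at 0.0214 in the exact permutation test. The median r was 0.42 within FS rats and 0.85 within controls, where 33 of 36 pairs had an adjusted p under 0.05 and control replicates 2, 3 and 7 were part of every pair. Whether r differed between the groups was not tested.

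**Figure D3:**
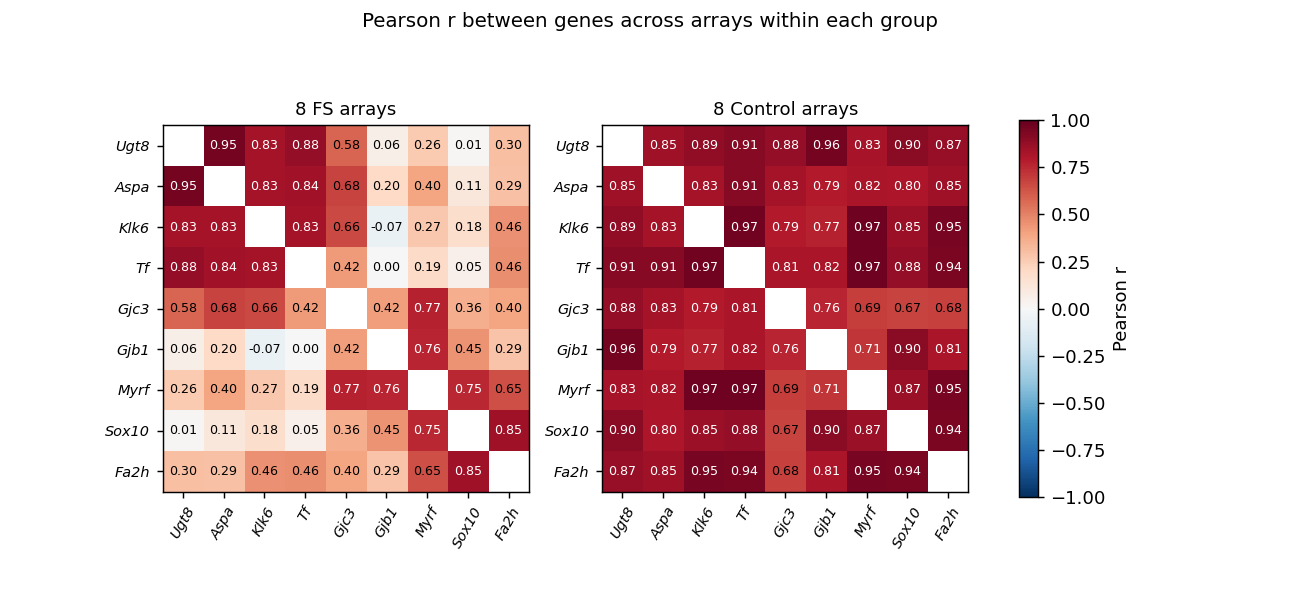
Pearson r between the 9 genes across the 8 FS arrays (left) and the 8 control arrays (right), printed in each cell. Within FS rats the pairs among Ugt8, Aspa, Klk6 and Tf lie between 0.83 and 0.95, and within controls all 36 pairs lie between 0.67 and 0.97.

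The genes whose array-to-array pattern was most like that of each of the 9 were found by Pearson r of the deviations from the group means over 16 arrays, which include the 3 low controls. Of the 27 places (3 for each gene), 8 went to structural myelin genes, 3 to genes among the 9 themselves, and 22 different genes were named in all. For Ugt8 they were Tspan2, Ermn and Evi2a, with r of 0.93 each. Fa2h was followed by Sox10, Abca2 and Fnbp1 (0.92 each), and Aspa by the fatty acid elongase gene Elovl7 (0.90), the ceramide synthase gene Cers2 (0.88) and Ermn (0.85). Myrf was nearest to Mobp, Abca2 and Mog, which code for myelin proteins or a lipid transporter (0.93, 0.93 and 0.92), and Sox10 to the lineage factor Olig1 (0.94), Abca2 (0.93) and Fa2h (0.92). Klk6 was followed by Mog (0.92), C11h21orf91 (0.91) and Tf (0.90), and Tf by Mog (0.95), Mal (0.94) and Elovl1 (0.93). The nearest genes of Gjb1 were Slc6a9, Pcsk7 and Pmp22 (0.84, 0.84 and 0.83), and those of Gjc3 were the cholesterol transporter gene Npc1 (0.95), Qdpr (0.90) and Cpm (0.89). Pcsk7 was the only 1 of the 22 that was lower in FS rats, by -0.07 on the log2 scale, and its r with Gjb1 over the plain values was 0.33.

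Other genes of lipid supply had smaller median differences than the 9 genes, and 0 genes of any list described here had an adjusted p under 0.05 in limma. For the list counts with an unadjusted p under 0.05, the shares over all tested probe sets were 3.65% higher in FS rats and 5.67% lower. Of 14 genes of the cerebroside and sulfatide pathway, 7 were higher in FS rats and 7 lower, with a median difference of 0.00 on the log2 scale, and 2 higher and 1 lower had an unadjusted p under 0.05. The largest differences of this list were those of Ugcg, which makes glucosylceramide from the ceramide that Ugt8 also uses (-0.26 ± 0.13, SE, n = 8 per group), of the desaturase gene Degs2 (-0.21 ± 0.08) and of the ceramide synthase gene Cers2 (0.19 ± 0.09). Ugt8 and Ugcg thus differed in opposite directions, with Ugcg at 8.59 ± 0.29 in FS rats and 8.85 ± 0.26 in controls (SD), and this contrast between the genes was not tested. Of 13 genes of N-acetylaspartate and fatty acid supply, 7 were higher and 6 lower (median 0.05), with an unadjusted p under 0.05 for 4 higher and 0 lower. The elongase gene Elovl1 differed by 0.29 ± 0.11, and Folh1, whose product releases N-acetylaspartate from its dipeptide, by 0.24 ± 0.09. Nat8l, which makes the N-acetylaspartate that Aspa splits, differed by -0.22 ± 0.16.

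Regulators of the lineage other than Myrf and Sox10 gave 11 higher and 5 lower of 16 genes, a median difference of 0.09, and an unadjusted p under 0.05 for 7 higher and 0 lower. The highest were the zinc finger gene St18 (0.44 ± 0.15, SE, n = 8 per group), Olig2, which sets up the lineage (0.26 ± 0.08), and the chromatin remodeller gene Chd7 (0.25 ± 0.09). Of 6 other lineage genes, most of which hold the lineage back, 2 were higher and 4 lower (median -0.06, 0 with an unadjusted p under 0.05). Among them Id4 differed by 0.26 ± 0.13. Markers of oligodendrocyte precursors gave 5 higher and 1 lower of 6 (median 0.08), with Pdgfra at 0.21 ± 0.09, and those of newly formed oligodendrocytes 5 higher of 5 (median 0.14), with Bcas1 at 0.30 ± 0.13. In each of these last 2 lists 1 gene, the one named, had an unadjusted p under 0.05. The structural myelin list had 12 higher of 12 with a median of 0.39, the same median as the 9 genes. All 12 had an unadjusted p under 0.05, against 3.65% of all tested probe sets in that direction. Control replicates 2, 3 and 7 had the lowest means of this list, and its differences without them are not given. Mbp differed by 0.38 ± 0.13, Mag by 0.40 ± 0.15 and Mog by 0.42 ± 0.14.

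Of 10 genes of iron handling, 3 were higher and 7 lower (median -0.03, with an unadjusted p under 0.05 for 0 higher and 1 lower). Tf and its receptor gene Tfrc differed in opposite directions, Tfrc by -0.25 ± 0.11 (SE), since FS rats averaged 6.60 ± 0.25 and controls 6.85 ± 0.20 (SD, n = 8 each; adjusted p-value 0.523 in limma). The copper-dependent iron oxidase gene Cp differed by 0.33 ± 0.22 and the reductase gene Steap3 by -0.12 ± 0.07. Of 4 tested connexin and pannexin genes beside Gjb1 and Gjc3, 2 were higher and 2 lower (median 0.04, 0 with an unadjusted p under 0.05). The astrocyte connexin genes Gja1 and Gjb6 differed by 0.16 ± 0.09 and 0.12 ± 0.11, and the pannexin gene Panx1 by -0.26 ± 0.17. Of the other kallikreins in the list, Klk7, Klk8, Klk10 and Klk11 had means of 4 or lower and were not tested. The protease-activated receptor genes F2r and F2rl1 differed by -0.06 ± 0.10 and -0.04 ± 0.14.

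**Figure D4:**
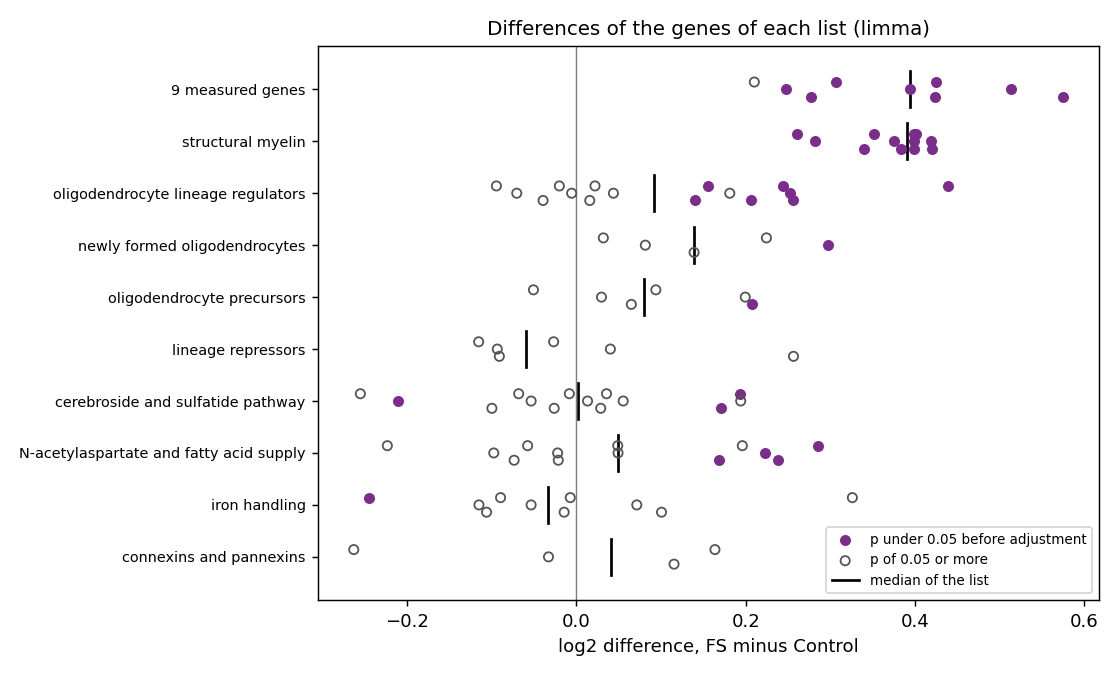
Log2 difference between FS and control arrays (FS minus control) for the 9 genes and for each gene of 9 related lists, with a black line at the list's median and filled points where the unadjusted p of limma was under 0.05. The 9 genes and the structural myelin list share a median of 0.39, and the other medians lie between -0.06 and 0.14.

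Markers of other tissue also had different means in the groups. Of 11 striatal markers, 11 were higher in FS rats (median difference 0.91), with Drd1 at 1.13 ± 0.54 and Drd2 at 1.31 ± 0.63 (SE, n = 8 per group). An unadjusted p under 0.05 was found for 3 of these 11, against 3.65% of all tested probe sets in that direction. The summed level of the striatal markers, after undoing the log2, was 1074 to 5043 in FS rats and 1091 to 6020 in controls. Of 7 markers of cortical excitatory neurons, 0 were higher (median -0.34), and 0 had an unadjusted p under 0.05. Of 5 meningeal markers, 5 were higher (median 0.42) and 0 had such a p, with summed levels of 219.3 to 1113 in FS rats and 221.4 to 549.7 in controls. The part of the meningeal and cortical markers in the differences of the 9 genes was not tested. Among the other cell types, 5 of 7 astrocyte, 4 of 7 microglial and 2 of 5 endothelial markers were higher, with medians of 0.06, 0.00 and -0.06, and 0 of these had an unadjusted p under 0.05. Of 5 named Schwann cell genes, Pmp2 and Prx, which mark peripheral myelin, lay below 4 on every array, and Ncmap, Cdh19 and Egr2 were tested and differed by -0.12 ± 0.09, 0.00 ± 0.06 and -0.10 ± 0.18. Of 7 choroid plexus markers, Aqp1 alone was tested (0.15 ± 0.14). Among the other 6, Ttr was between 3.50 and 4.54 in FS rats and between 3.21 and 3.76 in controls. Otx2 reached 4.81 in FS rats and 4.87 in controls, Kcnj13 reached 5.18 in FS rats and 4.68 in controls, and Folr1, Kl and Clic6 lay below 4 on every array.

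Over the 13 arrays other than control replicates 2, 3 and 7, which pool both groups, the 9 genes followed structural myelin more closely than the striatal mean in their medians. Sox10 went the other way, with r of 0.29 with structural myelin and 0.51 with the striatal mean. Fa2h (0.50 and 0.48) and Gjb1 (0.60 and 0.59) had nearly equal values. Whether the 2 values of a gene differed was not tested. With structural myelin the median r was 0.79 (0.29 for Sox10 to 0.91 for Klk6), the median rho was 0.80, and 6 of 9 genes had a permutation p under 0.05 after adjustment over the 18 relations. With the striatal mean the median r was 0.48 (0.17 to 0.65) and 0 of 9 had such a p. When 2 more arrays were left out, the median r was 0.75 with structural myelin, where 8 of 9 had such a p, and 0.56 with the striatal mean, where 3 of 9 did (Ugt8, Aspa and Gjb1). When the striatal mean was put into limma as a covariate, all 9 differences stayed positive, between 0.10 for Sox10 and 0.41 for Ugt8. In that fit 5 of the 9 genes (Ugt8, Myrf, Klk6, Gjb1 and Gjc3) had an unadjusted p under 0.05. Such a p, with a higher mean in FS rats, was found for 234 of all 11352 tested probe sets. With the structural myelin mean as a covariate the differences lay between -0.06 and 0.19. Ugt8 then differed by 0.19 ± 0.08, the only 1 of the 9 with an unadjusted p under 0.05. Among all 11352 tested probe sets, 108 then had such a p and were higher in FS rats. Sox10 and Tf were at -0.059 and -0.027 and Fa2h at 0.00. The adjusted p-values were 0.995 under the first covariate and 1.00 under the second.

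**Figure D5:**
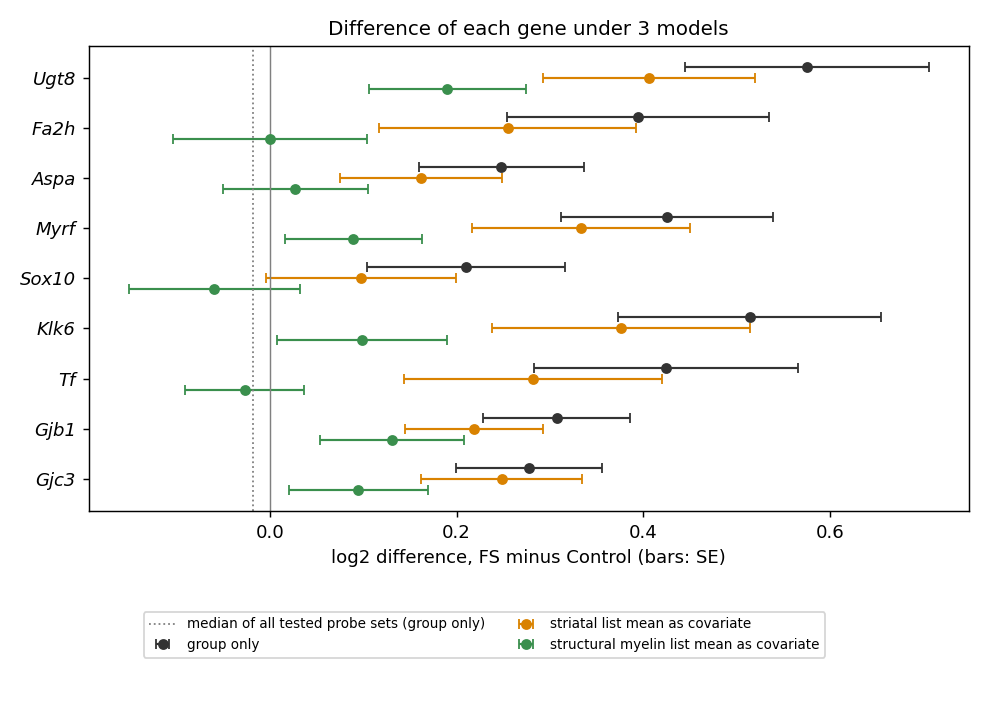
Log2 difference (FS minus control) of each of the 9 genes with its SE in limma, with the group alone (black), with the striatal mean as a covariate (orange) and with the structural myelin mean as a covariate (green). All 9 black and orange points lie above 0, and with structural myelin as a covariate Ugt8 is highest at 0.19 while Sox10 and Tf lie below 0.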

How the data were processed

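RNA from the PFC was measured on 16 arrays, 8 of FS rats and 8 of controls, and the labels gave the groups. The authors used the rma function of oligo (version 1.58.0), so the deposited values are background-corrected, quantile-normalised log2 expression per probe set. Arrays normalised together cannot show a shift common to most genes. Of 29214 probe sets, 18644 had 1 gene symbol in the platform annotation, 962 several and 9608 none. Testing was limited to the 11352 probe sets with 1 symbol whose 16-array mean exceeded 4, using limma (version 3.58.1, R 4.3.3) and Benjamini-Hochberg adjustment. Exact permutation tests used all 12870 assignments of arrays to groups, two-sided. Correlations had 100000 permutations, or all of them within a group. The 10 genes, the lists and the tests were chosen with earlier results of these data known. Named genes are the 10 genes, up to 3 genes of each list with the largest differences, chosen markers, and the 3 genes most like each of the 9. On simulated data of this size, 89% of 100 probe sets shifted by 0.5 and 98% of 100 shifted by 1 were recovered among 11352. Of the calls, 3.11% were false. These percentages hold for the simulated noise and were not shown to hold for the real arrays. There, pairs of the 9 genes varied together, with a median r of 0.84 over 16 arrays. In the real data 0 of 11352 probe sets passed, and Ugt8, with a difference of 0.58, had an adjusted p-value of 0.495 in limma. Alternatives were other filters, centring, 1 value per gene, other variance models, array weights, covariates, the replicate number as a block, and arrays left out.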

Additional observations from a re-analysis of the deposited data

Results flagged for a closer look

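Control replicate 6 lay far above the other controls in the mean deviation of the striatal list, at 1.752 on the log2 scale, with 0.271 as the next value and a gap of 0.54 of the group's whole range. It was 1 of 22 groups of 8 arrays examined in this way (the 9 genes and the means of the structural myelin and striatal lists, in each group), and chance marks about 1 in 20 such groups. The same array had the highest control value of Ugt8, Fa2h, Myrf, Sox10, Klk6, Tf and Gjb1. FS replicates 2, 3, 4, 6 and 8 were also high in the striatal mean, between 0.71 and 1.46.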

How the results depend on the processing

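Of the 29 alternative settings, those with another filter, 1 value per gene, another variance model or the replicate block could not change a difference. Each of the 9 genes had 1 probe set with a single symbol, and the groups were balanced. No fit passed the adjusted threshold (adjusted p-values in limma from 0.161 to 1.00), so staying on its side says little. Over all settings, 259 of 261 fits of the 9 genes kept the direction and side of that threshold that they had with all arrays. The exceptions were Sox10 (-0.059) and Tf (-0.027) with the structural myelin mean as a covariate, where the median of the 9 genes was 0.090, 1 gene had an unadjusted p under 0.05, and 268 probe sets did (108 higher in FS rats). With the striatal mean as a covariate these were 5 genes and 474 probe sets (234 higher), and with array weights 706 probe sets were higher. Centring the arrays added 0.02 to every difference and gave 533 higher and 549 lower probe sets with such a p, against 414 and 644. With each array left out in turn, 0 to 1 probe sets passed the adjusted threshold (1 without FS replicate 2, Apold1), 648 to 1870 had an unadjusted p under 0.05 with 282 to 694 of them higher, 8 to 9 of the 9 genes did, and their median was 0.31 to 0.46. Without control replicates 2, 3 and 7 the counts were 403 probe sets, 162 of them higher, and 5 of the 9 genes. Without control replicate 6 and FS replicate 3, also chosen after seeing the data, 1 probe set (Hhip) passed. Apold1 and Hhip are named after their values were seen.

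Over all 16 arrays, 36 of 36 pairs of genes and 17 of 18 relations with the list means had an adjusted p under 0.05. These counts were 1 and 3 within FS rats, 14 and 6 without control replicates 2, 3 and 7, and 11 for the list means within controls. Whether the replicate numbers pair the arrays was not tested, and the labels do not say. Of 8 same-numbered pairs, 4 had a correlation of deviations over 0.1 (-0.313 to 0.492 over all 8). Of 8 FS arrays, 2 correlated best with the control array of their own number. With the replicate number as a block, 9 of the 9 genes (Sox10 included) and 1242 probe sets had an unadjusted p under 0.05, against 8 and 1058, with adjusted p-values of the 9 genes from 0.442 to 0.450 and no change of any adjusted call. The median SE of a difference over all tested probe sets was 0.07.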
